A study of Rattus norvegicus with 10 samples.

Results

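The genes described here are targets of the tumour suppressor p53 and genes that hold cells in growth arrest: Cdkn1a, Mdm2, Ccng1, Gdf15, Btg2, Gadd45a, Plk2, Bax and Phlda3. A probe set was taken when the platform annotation names 1 gene for it and that gene is among these 9. This gave 10 probe sets of 7 genes, out of 31042 probe sets on the array that are not Affymetrix controls: 3 for Mdm2, 2 for Cdkn1a and 1 for each of Ccng1, Gdf15, Gadd45a, Plk2 and Phlda3. The probe set annotated to Bax also names a second gene and is described apart, and Btg2 was not analysed here. All 10 probe sets passed the filter on dim signal, a log2 value of at least 4.82 on 2 arrays, although Ccng1 and Gdf15 each lay below that level in some groups.

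Total RNA was measured on 10 single-colour Affymetrix rat arrays, 2 for each of 5 groups of A7r5 cells, a smooth muscle line from embryonic rat aorta. The labels describe all groups as stably transfected, kept in normal oxygen and 10% serum and harvested at about 50% confluence. The labels of the control disagree in part: its titles and source call the cells native, while its description and transfection field name an empty vector, and it is called empty vector here. A second group carried wild-type human BMPR2, and the other 3 carried a mutant of it. The CD mutant has 2579-2580delT in the cytoplasmic tail, the KD mutant has C994T in the kinase domain, and the ED mutant has T354G in the extracellular, ligand-binding domain. BMPR2, the type II bone morphogenetic protein receptor, is mutated in heritable pulmonary arterial hypertension. The construct was added to cells with their own rat receptor, and no label states whether the 2 arrays of a group are separate cultures. P-values then cover the spread between arrays alone, which can be a technical one.

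The p53 protein is a transcription factor that accumulates when DNA is damaged or growth signals are abnormal. It binds DNA as a tetramer at a pair of half-sites and switches on genes that stop the cell cycle, repair DNA or start apoptosis. Cdkn1a encodes p21, the inhibitor of cyclin-dependent kinases through which p53 arrests cells before S phase, and Mdm2 encodes the ubiquitin ligase that destroys p53 and so closes a feedback loop. In vascular smooth muscle, bone morphogenetic protein signalling is known to restrain growth, and loss of that restraint is a feature of pulmonary arterial hypertension.

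Promoter sequence was read for the 7 genes from RefSeq on the rat assembly GRCr8, as 8 windows of 300 bases, from 250 before to 50 after a start site. A perfect p53 half-site of 10 bases lay in 3 of the 8 windows, against 7.98% of 33469 rat promoter windows. A full p53 site, 2 half-sites of 10 bases without a spacer and with at most 1 mismatch, lay in 2 of the 8, against 0.0717% of all windows. Both motifs read alike on either strand, and the half-site can lie inside the full site. The windows with a match are printed 5′ to 3′ up to the edge of the gene, with the match in capitals. Cdkn1a is at chr20:7150682-7150819 on the plus strand, Ccng1 at chr10:25684877-25685126 on the minus strand and Gadd45a at chr4:97486800-97487049 on the minus strand.
Cdkn1a: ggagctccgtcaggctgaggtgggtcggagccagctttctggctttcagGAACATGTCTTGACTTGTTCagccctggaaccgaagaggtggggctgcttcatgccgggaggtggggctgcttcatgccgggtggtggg
Ccng1: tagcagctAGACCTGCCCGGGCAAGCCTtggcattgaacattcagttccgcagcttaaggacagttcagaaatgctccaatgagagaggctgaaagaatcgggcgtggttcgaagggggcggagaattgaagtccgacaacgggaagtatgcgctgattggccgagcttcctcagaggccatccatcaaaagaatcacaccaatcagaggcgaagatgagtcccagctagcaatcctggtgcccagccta
Gadd45a: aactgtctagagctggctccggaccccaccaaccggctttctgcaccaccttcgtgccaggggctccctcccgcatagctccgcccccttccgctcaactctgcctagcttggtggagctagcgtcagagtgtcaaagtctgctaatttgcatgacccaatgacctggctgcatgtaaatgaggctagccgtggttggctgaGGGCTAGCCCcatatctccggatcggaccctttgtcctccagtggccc
The full site of Cdkn1a, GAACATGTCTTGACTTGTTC, begins 201 bases before the start site, and that of Ccng1, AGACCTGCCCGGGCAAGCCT, begins 242 bases before it, each with 1 mismatch. Gadd45a held a half-site only, GGGCTAGCCC, 48 bases before the start. The start site of the Cdkn1a window lies inside the span of the gene, so its printed sequence stops before that site. A match is a description of these letters and no evidence of binding, and windows without one say nothing about sites elsewhere, such as those in introns.

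Before any comparison, the 2 arrays labelled KD mutant must be set off from the other 8. Their values correlated with those of the other 8 at 0.709 to 0.719, while the 8 correlated with each other at 0.992 to 0.996 and the 2 KD mutant arrays at 0.992. The median of all probe sets was 4.94 to 4.95 on the KD mutant arrays and 5.32 to 5.36 on the others. Cell type markers differed in the same split, in both directions. The median of 10 smooth muscle markers was 5.44 to 5.72 on the 8 arrays, with the contractile protein gene Tagln at a mean of 4.98, near the filter level, and 8.01 to 8.19 on the KD mutant arrays, with Tagln at 11.33. Of these markers 8 had the higher mean on the KD mutant arrays and 2 the lower, among them Smtn at 10.41 on the 8 arrays and 8.34 on the KD mutant arrays. Cald1 was bright in both sets, at 10.40 and 11.77. The median of 12 epithelial markers was 5.98 to 6.23 on the 8 arrays, with Cdh1 at 9.71, and 4.47 to 4.58 on the KD mutant arrays, with Cdh1 at 5.87. Of these, 10 were lower on the KD mutant arrays and 2 higher, among them Krt7 at 7.32 and 11.94. Of the smooth muscle markers 7 of 10 lay above the filter level on the 8 arrays and 8 of 10 on the KD mutant arrays, and of the epithelial markers 9 and 6 of 12. Fibroblast markers had a median of 5.12 on the 8 arrays and 7.66 on the KD mutant arrays, but went both ways. Of these 10 markers 5 were higher on the KD mutant arrays, among them Col1a1 at 6.05 and 10.55. The other 5 were lower, among them Fbln1 at 7.52 and 6.48. Of 6 leukocyte markers 1 was higher on the KD mutant arrays, and of 6 hepatocyte markers 0 were. In either set 0 of 5 endothelial markers lay above the filter level. On the 8 arrays the smooth muscle label therefore met mixed values. Smtn and Cald1 were bright, and Myh11, Acta2 and Des read 6.79, 6.26 and 6.09. Tagln and Synpo2 (4.88) lay near the filter level, and Cnn1 (4.39), Myocd (4.26) and Lmod1 (3.86) below it. Of the epithelial markers Krt18 (11.47), Krt19 (9.41) and Krt8 (8.53) were bright there beside Cdh1. Spint1 (4.81), Epcam (3.78) and Cldn4 (3.36) lay below the filter level. Each comparison with the KD mutant is given as a comparison with the arrays carrying that label. The part of cell identity in those comparisons was not tested. The other 4 groups are therefore described first, and all fits without the KD mutant arrays are among the alternatives.

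Across empty vector, wild type, CD mutant and ED mutant, the group means of a p53 target lay at most 0.60 apart on the log2 scale. The range of the 4 means was 0.18 to 0.60 over the 10 probe sets, with a median of 0.29. It was larger than the largest SD of that probe set's own groups in 9 of 10, the exception being the second Mdm2 probe set (0.24 against 0.34). How often this held over all tested probe sets was not counted, so it does not show a difference between groups. In limma, adjusted over all 22502 tested probe sets, 0 of 10 changed between any of these groups. The 95% interval of a difference reached 0.22 to 0.40 to either side, with a median of 0.29, so the count of 0 does not show that levels were equal. The background was 0.0133% of all tested probe sets for wild type against empty vector, 0% for the CD mutant and 0.164% for the ED mutant against wild type, 0.111% for the CD mutant and 0.529% for the ED mutant against empty vector, and 0.351% between the ED and CD mutants. At an unadjusted p under 0.05 the members passing numbered 0, 1, 2, 1, 2 and 3 in that order, next to 6.54%, 3.48%, 7.65%, 8.74%, 11.4% and 9.39% of all probe sets. Leaving out any 1 array of the groups compared lowered the count of changed probe sets from 37 to between 0 and 1 for the ED mutant against wild type, from 25 to 1 for the CD mutant and from 119 to between 19 and 37 for the ED mutant against empty vector. Between the ED and CD mutants it fell from 79 to between 12 and 31, and for wild type against empty vector from 3 to 1. With an intensity trend and robust variance in limma, 1 member passed in each of 2 comparisons, the first Mdm2 probe set in the CD mutant against empty vector (adjusted p = 0.0397) and the first Cdkn1a probe set in the ED mutant against the CD mutant (adjusted p = 0.0312). That fit called 0.64% and 1.28% of all probe sets in these comparisons. In RNA of whole cultures, fewer cells with a transcript and less of it per cell cannot be told apart.

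**Figure D1:**
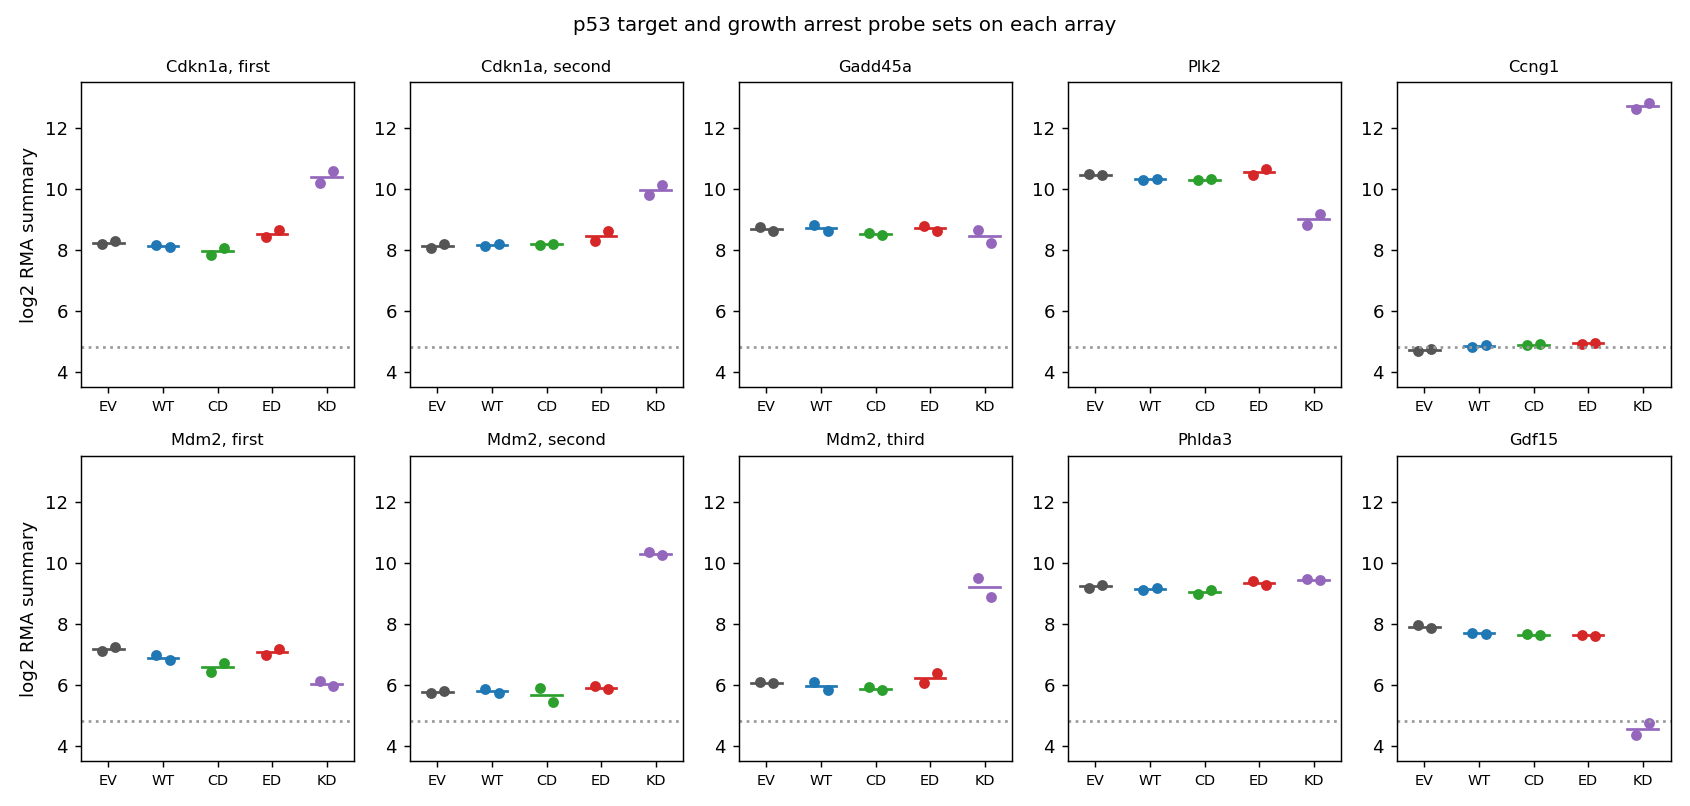
Log2 RMA value (vertical axis) of each of the 10 probe sets on each of the 10 arrays (points), by group (EV empty vector, WT wild type), with the group mean as a line and the filter level as a dotted line. Ccng1 lies at 4.69 to 4.94 on 8 arrays and at 12.63 and 12.81 on the KD mutant arrays, while Gdf15 lies at 7.6 to 7.96 on 8 arrays and at 4.35 and 4.75 on the KD mutant arrays.

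Among the genes that block the cell cycle, Cdkn1a (chr20:7150820-7161373) was the most variable. On its brighter probe set over the 10 arrays, called the first, the values were 8.18 and 8.3 with empty vector, 8.17 and 8.09 with wild type, 7.85 and 8.08 with the CD mutant and 8.41 and 8.65 with the ED mutant. The ED mutant arrays were the highest of the 8 and the CD mutant arrays the lowest, with no overlap between those groups. The second probe set read 8.08 and 8.2, 8.14 and 8.18, 8.16 and 8.21, and 8.3 and 8.63 in the same order of groups. Here the ED mutant was again highest, but the other 3 groups overlapped and the CD mutant was not the lowest. The ED mutant stood 0.56 above the CD mutant on the first probe set (SE 0.144, 95% interval 0.25 to 0.88, limma adjusted p = 0.18) and 0.28 above it on the second (interval -0.02 to 0.58, limma adjusted p = 0.562). Against wild type the ED mutant stood 0.40 and 0.31 higher, and against empty vector 0.29 and 0.33 higher, with limma adjusted p of 0.391 or more. None of these passed the test over all probe sets.

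Gadd45a (chr4:97484497-97486799), which binds PCNA and cyclin-dependent kinase 1 in the DNA damage response, read 8.75 and 8.62 with empty vector, 8.82 and 8.62 with wild type, 8.57 and 8.5 with the CD mutant and 8.77 and 8.63 with the ED mutant. Only the CD mutant arrays lay below all the others. Plk2 (chr2:43702536-43708305), a polo-like kinase induced by stress, read 10.5 and 10.45, 10.31 and 10.34, 10.3 and 10.32, and 10.46 and 10.66 in that order. Wild type and the CD mutant lay below empty vector and the ED mutant without overlap, by at most 0.25 between group means (ED mutant minus CD mutant, limma adjusted p = 0.577). Ccng1 (chr10:25678503-25684876), which encodes cyclin G1, a partner of protein phosphatase 2A that acts on Mdm2, read 4.69 and 4.74, 4.81 and 4.87, 4.88 and 4.9, and 4.93 and 4.94. All 6 arrays with a receptor lay above both empty vector arrays, by 0.17 on average (limma adjusted p = 0.55), but most of these values lie close to the filter level of 4.82, where RMA compresses differences.

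Mdm2 (chr7:55176558-55201757), the ligase that degrades p53, has 3 probe sets that did not behave alike, numbered here by their mean over the 10 arrays. On the first it read 7.09 and 7.24 with empty vector, 6.97 and 6.8 with wild type, 6.43 and 6.72 with the CD mutant and 6.98 and 7.18 with the ED mutant. The CD mutant was the lowest group here without overlap, while the ED mutant overlapped with empty vector and lay just above wild type. The CD mutant stood 0.60 below empty vector (difference -0.60, SE 0.131, 95% interval -0.88 to -0.31, limma adjusted p = 0.181). The ED mutant stood 0.51 above the CD mutant (SE 0.131, 95% interval 0.22 to 0.80, limma adjusted p = 0.18). The second read 5.43 to 5.94 and the third 5.82 to 6.39 over these 8 arrays, with the groups overlapping on the second. These probe sets differed less: the CD mutant minus empty vector difference was -0.10 on the second and -0.20 on the third, and the ED mutant minus CD mutant difference was 0.24 and 0.35. Over the 8 arrays the 3 probe sets correlated with each other at 0.16, 0.53 and 0.68, while the 2 of Cdkn1a correlated at 0.80.

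Phlda3 (chr13:49745003-49748088), whose product competes with Akt for membrane lipids, read 9.18 and 9.28 with empty vector, 9.09 and 9.16 with wild type, 8.97 and 9.11 with the CD mutant and 9.4 and 9.27 with the ED mutant. The ED mutant was 0.30 above the CD mutant (95% interval 0.07 to 0.52, limma adjusted p = 0.385). Gdf15 (chr16:18838436-18842022), a secreted member of the TGF-beta superfamily that rises under cell stress, read 7.96 and 7.86, 7.71 and 7.67, 7.65 and 7.63, and 7.64 and 7.6 in the same order. It was the 1 member in which the ED mutant was lowest, and all 6 arrays with a receptor lay below both empty vector arrays. The mean of the wild-type, CD and ED groups minus empty vector was -0.26 (SE 0.104, 95% interval -0.48 to -0.03, limma adjusted p = 0.424). In that pooled comparison 0 of 10 members changed, next to 0.2% of all probe sets (45, and 2 to 18 with any 1 array left out), and 2 members had an unadjusted p under 0.05, next to 9.87%.

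**Figure D2:**
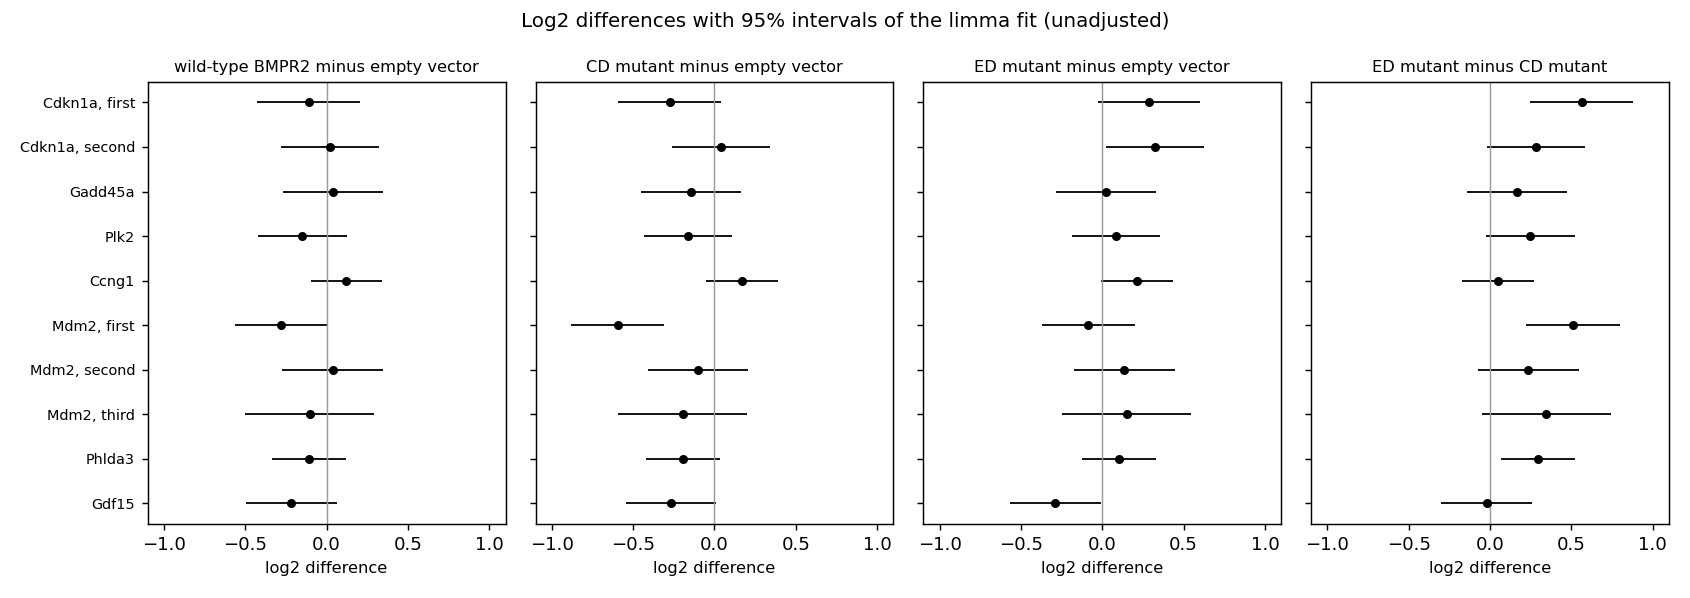
Log2 differences (horizontal axis) of the 10 probe sets (rows) in 4 comparisons (panels: wild type, CD mutant and ED mutant each minus empty vector, and ED mutant minus CD mutant), as points with unadjusted 95% intervals. In the ED mutant minus CD mutant panel, 9 of 10 points lie above 0, and those of the first probe sets of Cdkn1a (0.56) and Mdm2 (0.51) lie farthest from it.

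The ED mutant had the highest group mean in 7 of the 10 probe sets and the lowest in 1, while the CD mutant had the highest in 0 and the lowest in 7. Empty vector was highest in 2 and lowest in 2, and wild type was highest in 1. The order of groups was not counted over all tested probe sets, so these counts have no background and are a description. The median ED mutant minus CD mutant difference was 0.27 over the 10 probe sets and -0.01 over all tested probe sets, and 9 of 10 members lay above 0 next to 48% of all. Both ED mutant arrays lay above both CD mutant arrays in 8 of 10, next to 19.6% of all tested probe sets. The same was true of the ED mutant over wild type in 6 of 10, next to 20.6%. The CD mutant lay below empty vector on both arrays in 7 of 10, next to 20.6%, and below wild type in 4 of 10, next to 16.5%. Wild type lay below empty vector in 5 of 10, next to 21.7%. These counts describe probe sets that share arrays, and some share a gene, so they are not independent of each other. These comparisons share groups, and the list was known to lean this way in these arrays when it was chosen. The mean of 24 poly-A spike-in control probe sets was 8.56 and 8.62 on the CD mutant arrays and 8.24 and 8.28 on the ED mutant arrays, and its part in these differences was not tested.

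Other genes of the pathway are read against the same background, at most 0.529% of all probe sets in any comparison of these 4 groups. Of the measured genes of the companion lists, 10 of 14 p53 core genes and regulators, 22 of 30 other p53 targets, 17 of 20 other growth arrest genes, 11 of 12 Bcl2 family genes, 27 of 28 proliferation genes and 16 of 17 integrated stress response genes, only Perp and Nupr1 changed in any comparison without the KD mutant. Perp, a p53 target that encodes a membrane protein of desmosomes, was 7.62 ± 0.017 with empty vector, 7.04 ± 0.116 with wild type, 6.89 ± 0.15 with the CD mutant and 7.33 ± 0.0052 with the ED mutant (SD, n = 2). It fell in the CD mutant against empty vector by 0.73 (limma adjusted p = 0.0397) and in the pooled comparison of receptor groups with empty vector by 0.53 (limma adjusted p = 0.0464). Its order of groups was that of Plk2 in that wild type and the CD mutant were low, and the ED mutant minus CD mutant difference was 0.44 (limma adjusted p = 0.172). Nupr1, a stress-induced nuclear protein gene, fell in the ED mutant against the CD mutant by 0.57, from 8.45 ± 0.0121 to 7.88 ± 0.0797 (SD, n = 2, limma adjusted p = 0.0489). Both genes lost their call when any 1 array of the groups compared was left out. The limma adjusted p then reached 0.126 to 0.477 for Perp in the CD mutant, 0.0678 to 0.669 for Perp in the pooled comparison and 0.214 to 0.307 for Nupr1.

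The median difference between the ED and CD mutants was 0.05 over the 22 other p53 targets and -0.01 over the 27 proliferation genes, next to -0.004 over all 12040 genes. For wild type against empty vector the 22 targets had a median of -0.12, with 7 of 22 above 0, next to -0.009 over all genes. The members themselves had a median of -0.11 in that comparison, next to -0.002 over all tested probe sets. Among the genes with the lowest p-values, Gadd45g, a relative of Gadd45a, stood at a wild type minus empty vector difference of -0.54 (limma adjusted p = 0.292), and Klf6, a growth-restraining transcription factor, at an ED mutant minus CD mutant difference of 0.47 (limma adjusted p = 0.173).

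On the arrays labelled KD mutant 9 of the 10 probe sets differed from wild type in limma, 6 higher and 3 lower. Next to this stood 89.6% of all tested probe sets, 7762 higher and 12404 lower. Against empty vector 8 differed, 5 higher and 3 lower, next to 89.7% of all, 7771 higher and 12408 lower. Against the mean of the CD and ED mutants, a comparison added after the data were seen, 9 differed, next to 90.7%. A share of 9 in 10 is thus that of the array as a whole, and the members' sizes and directions are given as a description. These 3 comparisons share the KD mutant arrays.

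Cell cycle regulators differed in both directions on the KD mutant arrays. Ccng1 read 12.63 and 12.81 there and 4.85 ± 0.0887 over the other 8 arrays (SD, n = 8), so the groups lay far apart. The KD mutant minus wild type difference was 7.88 (SE 0.101, limma adjusted p = 2.05e-13), the seventh lowest p of all probe sets, but its low side lies near the filter level, so the size of the ratio is uncertain. Cdkn1a read 10.2 and 10.58 on the first probe set and 9.79 and 10.12 on the second, above all other arrays. It was 2.26 and 1.79 higher than wild type (4.79-fold and 3.47-fold, limma adjusted p = 2.2e-08 and 1.08e-07). Plk2 read 8.83 and 9.17, below all other arrays, and its KD mutant minus wild type difference was -1.32 (2.51-fold lower, limma adjusted p = 6.55e-07). Gadd45a read 8.66 and 8.24, overlapping with other groups, with a difference of -0.27 (limma adjusted p = 0.088).

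The 3 Mdm2 probe sets pointed in opposite directions. On the second the KD mutant arrays read 10.34 and 10.26, against 5.78 ± 0.162 over the other 8 (SD, n = 8), and the KD mutant minus wild type difference was 4.50 (22.6-fold, limma adjusted p = 4.12e-11). On the third they read 9.49 and 8.89, against 6.03 ± 0.182, with a difference of 3.23 (9.35-fold, limma adjusted p = 7.16e-09). On the first they read 6.11 and 5.96, against 6.93 ± 0.269, with a difference of -0.85 (1.81-fold lower, limma adjusted p = 5.18e-05). Mdm2 is therefore given by probe set, with no direction for the gene. Of 2815 genes with at least 2 changed probe sets in this comparison, 1150, or 40.9%, had probe sets in both directions. Gdf15 read 4.35 and 4.75, below the filter level, with a difference of -3.14 (8.81-fold lower, limma adjusted p = 3.83e-10), a size that is also uncertain because its low side is dim.

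Phlda3 read 9.46 and 9.44, above the other 8 arrays, and differed from wild type by 0.33 (1.25-fold, limma adjusted p = 0.0106). Against empty vector its difference was 0.22 (limma adjusted p = 0.0673). The median of all tested probe sets was -0.56 in the KD mutant minus wild type comparison, so that the members' median of 1.06 is measured against a shifted array. With quantile normalization that median was -0.46, the Phlda3 difference turned to -0.24 (limma adjusted p = 0.0455), and with each array centred on its median the Gadd45a difference turned to 0.13 (limma adjusted p = 0.398). The directions of Ccng1, Cdkn1a, Plk2, Gdf15 and each Mdm2 probe set held under both scalings. Leaving out the first wild-type array ended the Phlda3 call (0.29, limma adjusted p = 0.0681), and leaving out the first KD mutant array brought Gadd45a past the threshold (-0.48, limma adjusted p = 0.00444). The poly-A controls read 7.26 and 6.64 on the KD mutant arrays and 7.49 to 8.62 on the others, and their part was not tested.

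**Figure D3:**
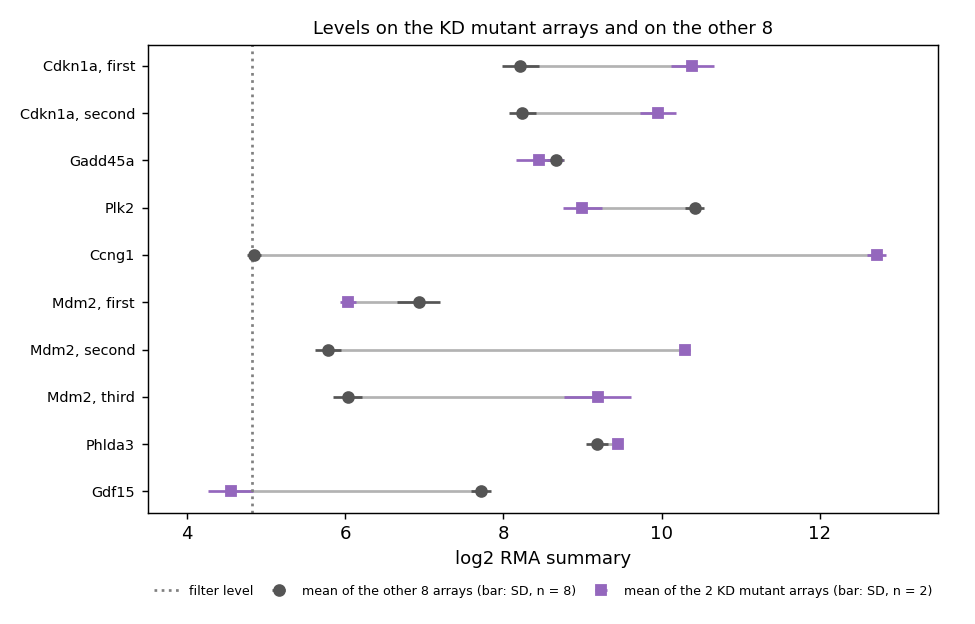
Mean log2 RMA value (horizontal axis) of the 10 probe sets (rows) over the 8 arrays of the other 4 groups and over the 2 KD mutant arrays, with SD bars and the filter level as a dotted line. Ccng1 moves from 4.85 to 12.72 and Gdf15 from 7.71 to 4.55, while Gadd45a (8.66 and 8.45) and Phlda3 (9.19 and 9.45) stay close together.

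The companion lists also differed on the KD mutant arrays in both directions, against the 89.6% of all probe sets that did. Of those, 7762 were higher and 12404 lower than with wild type. Each gene is read by its brightest probe set alone, and rose and fell refer to that probe set. Among genes with at least 2 changed probe sets 40.9% had both directions, so no direction is given for the gene. Against wild type, 5 p53 core genes and regulators rose and 4 fell, among them Cdkn2a, whose alternative product p19Arf blocks Mdm2, 4.38 higher, and Usp7, which removes ubiquitin from p53 and Mdm2, with a difference of -1.40. Of the other p53 targets 6 rose and 9 fell: Dram1, an autophagy regulator, was 2.75 higher, Fas, the death receptor, 2.03 higher, and Perp had a difference of -3.06. Of the other growth arrest genes 8 rose and 7 fell, with Btg3 4.98 higher and Cdkn1b, which encodes the kinase inhibitor p27, 2.73 higher. Of the Bcl2 family 2 rose and 8 fell, with Bok at -2.42, Bcl2l11 at -1.93 and Bid, which carries death signals to mitochondria, at 2.00. Of the proliferation genes 15 rose and 6 fell, with Mki67 5.19 higher and Top2a 3.17 higher beside Cdc20 at -3.69. Of the integrated stress response genes 4 rose and 8 fell, with Psat1 at 3.61 and Phgdh at -2.74. Cdkn2a, Btg3 and Mki67 lay below the filter level in all other groups and passed the filter only through the KD mutant arrays. Their tests and their place among the rises were therefore set by that filter. The same holds for some unnamed genes among the rises, such as Aurkb and Rb1. The other named genes had a limma adjusted p of 5.35e-08 or less. The sizes for Cdkn2a, Btg3 and Mki67, whose wild-type means of 4.22, 4.35 and 3.98 lie below the filter level, and for Perp, at 3.98 on the KD mutant arrays, are uncertain. Rises and falls thus stood side by side in the growth arrest and the proliferation lists. The epithelial and smooth muscle markers differed on the same arrays, and their part was not tested.

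For each gene the 3 genes most like it were sought by Pearson correlation over the 8 arrays other than the KD mutant, among 12033 candidates, and are given as a description because the highest of so many values are high by selection and the arrays share their groups. Those of Cdkn1a, by its first probe set, were Selenok (0.98), Sdf4 (0.97) and Mob4 (0.97), those of Mdm2, by its first, were Igf2bp1 (0.97), Tuba4a (0.97) and Psma2 (0.97), and those of Plk2 were Il15 (0.99), Gm2a (0.98) and Inava (0.98). For Gdf15 they were Abl2 (0.99), Vps37b (0.99) and Ppp2r2d (0.99), for Phlda3 Pnpla4 (0.97), Tinagl1 (0.95) and Kif3c (0.95), for Ccng1 Plin3 (0.99), Prkar1a (0.98) and Bnip3l (0.98), and for Gadd45a Me2 (0.97), Sac3d1 (0.95) and Lenep (0.94). Within the family, the first Cdkn1a probe set correlated with Plk2 at 0.88, with Phlda3 at 0.82 and with the first of Mdm2 at 0.81, while Gdf15 and Ccng1 ran opposite to each other at -0.97 over the 8 arrays.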

How the data were processed

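The 10 arrays were grouped by the construct their labels name. Values are log2 RMA summaries of probe sets as the authors deposited them, RMA being named in the submitters' processing notes without a version. RMA is meant to equalise array distributions and compresses differences at low signal. The deposited distributions were not equal, with medians of 4.94 to 4.95 on the KD mutant arrays and 5.32 to 5.36 on the others. No probe set is called absent, since detection calls were not used here, and precision is limited by having 2 arrays a group. Symbols came from the platform annotation, updated through Entrez identifiers with the RefSeq table of GRCr8, which also gave gene positions and promoters. These values were fitted by limma 3.58.1 (R 4.3.3; 5 group means, all 10 arrays, 5 residual degrees of freedom, 11.4 after moderation). Probe sets at or above the 40th percentile of all values on 2 arrays were tested, 22502 in number. P-values are two-sided and adjusted by Benjamini-Hochberg over all of them, and changed means an adjusted p under 0.05. SE is the moderated standard error. Lists used the brightest probe set of each gene.

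All member probe sets are named, with up to 4 genes per list and comparison by lowest adjusted p and the 3 best correlated genes. The members and lists were chosen with earlier results of these data known. The fit was tested on simulated data. Alternatives covered the filter, scaling, variance model, replicate block, gene-level fits, the arrays fitted and leaving out each array.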

Additional observations from a re-analysis of the deposited data

Results flagged for a closer look

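The KD mutant was compared with the mean of the CD and ED mutants, a comparison added after the data were seen, and limma found a difference between these mutants for 9 of the 10 probe sets, as it did for 90.7% of all tested probe sets. Higher on the KD mutant arrays were Ccng1 (7.81), Mdm2 on the second probe set (4.52) and on the third (3.14), the first and second of Cdkn1a (2.14 and 1.63), and Phlda3 (0.26). Lower were Gdf15 (-3.08), Plk2 (-1.43) and the first probe set of Mdm2 (-0.79). The Phlda3 difference reverses with quantile normalization. Groups of 2 arrays were too small for a check of single arrays against the rest of their group.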

How the results depend on the processing

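Counts of changed members stayed within 1.5 times the reported count under the alternatives run, with 3 exceptions. With an intensity trend and robust variance in eBayes, 1 member changed in the CD mutant against empty vector (the first Mdm2 probe set, -0.60, limma adjusted p = 0.0397) and 1 in the ED mutant against the CD mutant (the first of Cdkn1a, 0.56, limma adjusted p = 0.0312), while the changed probe sets in all rose from 25 to 144 and from 79 to 287. With genes in place of probe sets, 5 of 7 changed in the KD mutant against empty vector. The main fit called 8 of 10 probe sets there, next to 89.7% of all tested probe sets. Those 8 probe sets belong to 5 genes, so this count moved with the unit counted. Centring each array on its median turned the Gadd45a difference of the KD mutant to 0.127 against wild type, 0.149 against empty vector and 0.220 against the CD and ED mutants. Quantile normalization turned that of Phlda3 to -0.239, -0.319 and -0.298. With 1 array left out, the Gadd45a difference of the KD mutant from the CD and ED mutants, -0.17 with all arrays, ranged from -0.380 without the first KD mutant array to 0.0409 without the second. Same-numbered arrays correlated in their deviations from the group means at -0.029 to 0.143, above 0.1 in 1 of 10 pairs of groups. With 2 arrays a group, this cannot show whether the replicate numbers pair the arrays. A replicate block raised the changed members of the KD mutant against wild type from 9 to 10, with Gadd45a at -0.27 (limma adjusted p = 0.0405). In the main fit 89.6% of all tested probe sets changed in that comparison, so this count is not particular to the members. The block also ended the calls of Perp and Nupr1 (limma adjusted p = 0.0687 and 0.0722), as did 1 array left out, no filter or a threshold of 0.01. Without the 2 KD mutant arrays 0 members changed in the other comparisons, while the changed probe sets between the ED and CD mutants rose from 79 to 145. The cause of these shifts was not tested.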

Other observations

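The probe set annotated to both Bax, the Bcl2 family member that opens the mitochondrial outer membrane, and LOC681314 cannot be assigned to either. It read 11.98 and 11.94 with empty vector, 11.85 and 11.77 with wild type, 11.85 and 11.75 with the CD mutant and 12 and 11.92 with the ED mutant. On the KD mutant arrays it read 10 and 10.14, below all others. The KD mutant minus wild type difference was -1.74 (limma adjusted p = 1.06e-08), while ED mutant minus CD mutant was 0.16 (limma adjusted p = 0.678) and wild type minus empty vector -0.15 (limma adjusted p = 0.911).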
